A study of Mus musculus with 36 samples.

Results

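Livers of mice given cyclosporin A for 28 days were compared with livers of mice given it for 7 days. The comparison took 8 of the 36 libraries of the study, 4 at each day, and every gene with a normalised count of at least 10 in at least 4 of these 8 libraries, which left 10742 of 29546 genes. The changed genes were then sorted into 171 genes known to follow the circadian clock or the cycle of feeding and fasting, of which 156 were tested, and all others, of which 10586 were tested. The animals were C57BL/6 mice. Cyclosporin A, an immunosuppressant that also impairs bile flow, was given by oral gavage in olive oil at 15 mg per kg body weight, and the day 7 group (CsA7) and the day 28 group (CsA28) held 4 mice each. The 4 mice of the olive oil group (VEHICLE) received the same oil without the drug, and no day is given for them. In the other 2 models of the study, bile duct ligation by surgery (BDL7 and BDL28, with sham-operated controls, SHAM) and a diet with 0.1% by weight of 3,5-diethoxycarbonyl-1,4-dihydrocollidine (DDC7 and DDC28, with a control diet, CTLD) were sampled at the same days. The sources used here do not state the sex, age, hour of collection or feeding state of the mice. The time under treatment therefore cannot be told apart from the hour or the feeding state at collection, wherever these differed between the days.

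RNA was sequenced from its 3' end, so a normalised count is a number of tags per gene and does not scale with gene length. The 8 libraries held between 2325711 and 3770267 recovered reads, with 2976745 to 3770267 in CsA7 and 2325711 to 2994466 in CsA28. Values below are normalised counts, log2 differences are of day 28 minus day 7 on the scale log2(normalised count + 1) with their standard error, and a gene is called when its limma p, adjusted over all 10742 genes by the Benjamini-Hochberg method, is under 0.05. Each library is taken as 1 mouse.

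The circadian clock of a liver cell is a loop of transcription factors. BMAL1, the product of Arntl, pairs with CLOCK or NPAS2 and switches on the Per, Cry, Nr1d1, Nr1d2 and Dbp genes through E-box sequences. The PER and CRY proteins then block that pair, while NR1D1 and NR1D2, the REV-ERB receptors, compete with the ROR receptors at RORE sequences to repress Arntl, Npas2, Nfil3 and Cry1, and DBP and its relatives act at D-box sequences that NFIL3 also binds. Genes of the positive arm and genes of the REV-ERB and DBP group therefore peak at nearly opposite times of day in mouse liver, and feeding and fasting set another rhythm in genes of lipid, sugar and amino acid metabolism.

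The promoters of 4 of the genes reported here show these sequences as they stand in the mouse genome. Each is the stretch from 250 bases before to 50 bases after a transcription start of RefSeq on GRCm38.p6, read along the gene's own strand, with the matched motif in capitals: TAGGTCA or its reverse TGACCTA for the RORE in Arntl and Nfil3, TTATGTAA for the D-box in Per3, and CACGTG for the E-box in Ciart. Arntl and Nfil3 were higher at day 28, Per3 and Ciart lower.
Arntl, chr7:113207261-113207560, plus strand: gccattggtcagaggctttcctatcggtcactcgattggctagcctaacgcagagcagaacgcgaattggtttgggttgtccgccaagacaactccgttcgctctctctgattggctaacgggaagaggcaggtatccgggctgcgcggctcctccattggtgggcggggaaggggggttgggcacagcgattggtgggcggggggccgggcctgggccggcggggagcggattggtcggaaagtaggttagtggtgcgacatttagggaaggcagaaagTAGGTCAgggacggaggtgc
Nfil3, chr13:52980990-52981289, minus strand: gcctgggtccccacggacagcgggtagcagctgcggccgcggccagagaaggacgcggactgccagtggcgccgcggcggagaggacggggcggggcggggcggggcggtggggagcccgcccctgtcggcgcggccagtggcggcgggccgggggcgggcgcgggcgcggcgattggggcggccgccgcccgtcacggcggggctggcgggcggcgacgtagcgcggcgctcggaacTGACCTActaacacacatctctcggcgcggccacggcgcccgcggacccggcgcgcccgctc
Per3, chr4:151044616-151044915, minus strand: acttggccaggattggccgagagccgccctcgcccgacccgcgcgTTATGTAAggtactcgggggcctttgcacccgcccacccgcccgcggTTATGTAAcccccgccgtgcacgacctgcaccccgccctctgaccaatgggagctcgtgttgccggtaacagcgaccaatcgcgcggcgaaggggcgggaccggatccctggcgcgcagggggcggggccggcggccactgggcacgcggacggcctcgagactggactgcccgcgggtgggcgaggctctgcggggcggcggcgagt
Ciart, chr3:95882179-95882478, minus strand: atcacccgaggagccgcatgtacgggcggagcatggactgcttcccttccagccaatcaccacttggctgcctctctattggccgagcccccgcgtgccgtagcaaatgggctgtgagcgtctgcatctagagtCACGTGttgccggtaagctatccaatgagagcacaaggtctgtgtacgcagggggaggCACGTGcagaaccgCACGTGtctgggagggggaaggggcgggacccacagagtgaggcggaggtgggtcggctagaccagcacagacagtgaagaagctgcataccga
The RORE of Arntl began 30 bases after the start site and that of Nfil3 12 bases before it, the D-boxes of Per3 began 205 and 158 bases before it, and the E-boxes of Ciart began 116, 58 and 44 bases before it. Another start site of Arntl in the table had none of the 3 motifs, nor had the promoters of Nr1d1, Nr1d2 and Dbp. Searched on both strands of 32851 promoters of this length, the E-box stood in 7.15%, the RORE in 2.61% and the D-box in 0.938%. Counted by gene, the shares were 8.09%, 2.97% and 1.11%. Of the 12 named rhythm genes that rose, 11 had a promoter in the table: 3 of them held a RORE (Arntl, Nfil3 and Slc45a3) and 4 an E-box (Cry1, Dusp1, Lonrf3 and Ppp1r3c). Of the 8 that fell, 7 had one: Per3 held D-boxes and Tef an E-box. The motifs do not overlap in their letters, and a match describes these letters only.

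Between day 7 and day 28 of cyclosporin A, 341 of 10742 genes (3.17%) changed: 190 were higher at day 28 (1.77%) and 151 were lower (1.41%). Of the rhythm genes 27 of 156 changed, 16 up and 11 down, and of all other genes 314 of 10586, 174 up and 140 down. The changes of the rhythm genes were also larger, with a median size of 1.39 on the log2 scale among those called against 0.71 among the other called genes. The libraries of the 2 days did not overlap at all in 33 of the 156 rhythm genes, beside 1155 of all 10742 genes (10.8%). The change was uneven among the rhythm lists. The 5 lists of clock genes and genes driven by the liver clock held 50 tested genes, and 23 of them changed, 13 up and 10 down, while 4 of the 106 tested genes of the temperature, glucocorticoid and feeding lists changed, 3 up and 1 down. Against the 3.17% of all genes tested, the second share is near the background and the first is far above it, though the lists were drawn up with earlier results of these data known. With each library scaled to its total count, the split of all called genes was 126 higher and 227 lower. The counts rested in part on single libraries, with 75 higher and 53 lower without CsA7 replicate 4, 95 and 80 without CsA28 replicate 1, 112 and 97 without CsA7 replicate 3, and 124 and 98 without CsA28 replicate 4; the rhythm genes then called were 10 and 5 without CsA7 replicate 4, and 7 fell without CsA28 replicate 1.

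**Figure D1:**
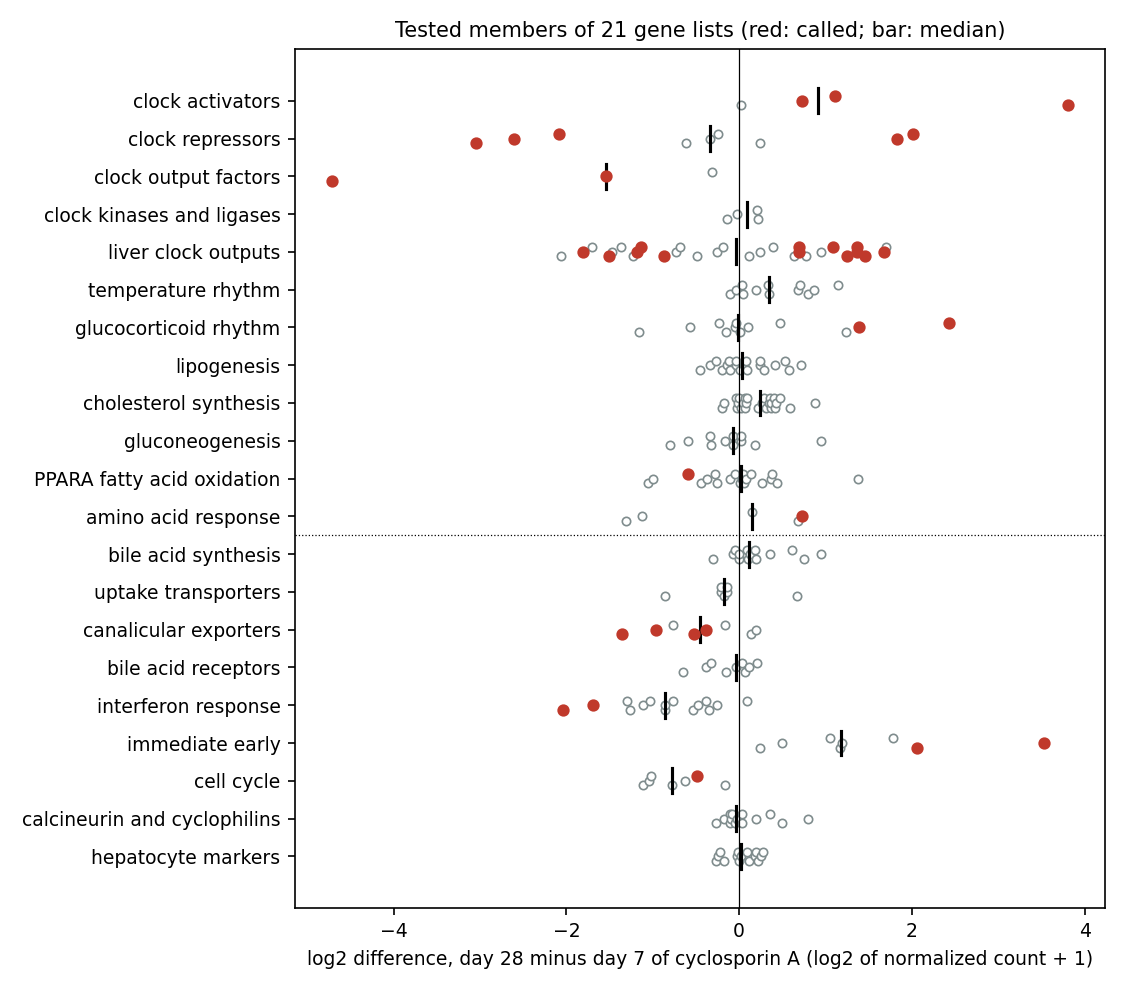
Log2 difference between day 28 and day 7 of cyclosporin A (x axis) for the tested members of 21 gene lists (rows), with rhythm lists above the dotted line. Red points passed the test, open points did not, and the bar is the median of a list; the called genes cluster in the clock lists, while the lists of lipogenesis, cholesterol synthesis and gluconeogenesis have none.

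The activators of the clock were low at day 7 and high at day 28. Arntl (ENSMUSG00000055116), which encodes BMAL1, had normalised counts of 22.3, 38.6, 3.07 and 2.29 in the 4 CsA7 mice, of 162, 121, 160 and 146 in the CsA28 mice, and of 117, 89.8, 163 and 176 in the VEHICLE mice. All 4 day 28 libraries were above all 4 of day 7 and within or near the range of the olive oil mice, and the difference was 3.81 ± 0.56 (limma adjusted p = 0.000304). Npas2, which can replace CLOCK as the partner of BMAL1, was too low for the filter: 1.01, 2.82, 0 and 0 in CsA7, 41.4, 5.37, 29.5 and 32.4 in CsA28, and 26.3 to 33.9 in VEHICLE. In a fit of all 24057 genes without the filter its difference was 3.78 ± 0.46 (limma adjusted p = 3.89e-06), with CsA28 replicate 2 the lowest of its group but above every day 7 library. Clock rose by less, from 202 ± 63.5 to 327 ± 54.4 (0.73 ± 0.13, limma adjusted p = 0.000811), and its lowest day 28 library, at 250.1, was under the highest of day 7, at 293. Rora, an activator of Arntl, was not called.

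The repressors of the clock moved in both directions. Nfil3, a repressor at D-box sequences, rose from 19.2, 27.3, 36 and 28.9 in CsA7 to 162, 78.4, 121 and 106 in CsA28, against 221, 157, 130.2 and 184 in VEHICLE (2.01 ± 0.36, limma adjusted p = 0.00111). Cry1, which blocks the CLOCK and BMAL1 pair, rose from 25.3, 39.5, 30.7 and 39.6 to 149, 95.5, 126 and 118, against 96.3 to 138 in VEHICLE (1.83 ± 0.43, limma adjusted p = 0.015). Neither gene overlapped between the days.
The REV-ERB receptors went the other way. Nr1d1 (REV-ERB alpha) fell from 76.9, 76.2, 87.4 and 97.5 in CsA7 to 3.88, 23.6, 7.61 and 10.04 in CsA28, an 8.23-fold difference on the log scale (-3.04 ± 0.51, limma adjusted p = 0.000713). Nr1d2 (REV-ERB beta) fell from 384, 302, 483 and 467 to 45.3, 142, 84.7 and 33.5 (-2.60 ± 0.29, limma adjusted p = 2.94e-06), the second smallest p of all genes tested. In both, the 4 day 28 libraries were below all of day 7, CsA28 replicate 2 was the highest of its group, and the VEHICLE mice lay between 5.47 and 24.1 for Nr1d1 and between 63.5 and 101 for Nr1d2.

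The period genes did not move as a group. Per3 fell, from 81.0, 23.5, 49.8 and 85.3 in CsA7 to 11.7, 49.4, 3.81 and 7.81 in CsA28 (-2.09 ± 0.51, limma adjusted p = 0.0181), and the groups overlapped because CsA28 replicate 2 was above the lowest day 7 library. Per1 (-0.24 ± 0.31, limma adjusted p = 0.757), Per2 (-0.34 ± 0.36, limma adjusted p = 0.705), Cry2 (-0.62 ± 0.28, limma adjusted p = 0.234) and Bhlhe40 (0.25 ± 0.25, limma adjusted p = 0.68) were not called. The sign of Per1 turned without CsA28 replicate 1 (0.03) and that of Per2 without CsA28 replicate 3 (0.0058). Ciart, a repressor of the same loop, failed the filter with 34.4, 6.58, 25.3 and 49.5 in CsA7 and 2.59, 6.44, 0.951 and 3.35 in CsA28, and in the fit without the filter it was lower at day 28 by 2.66 ± 0.57 (limma adjusted p = 0.00911). The groups did not overlap, but CsA7 replicate 2 and CsA28 replicate 2 nearly met. Bhlhe41, also under the filter, had -2.10 ± 0.60 (limma adjusted p = 0.0855). The 4 tested kinases and ubiquitin ligases that set the stability of clock proteins were not called by limma, edgeR or DESeq2, had no unadjusted p under 0.05, and had a median of 0.09.

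Of the transcription factors that the clock drives at D-boxes, Dbp showed the largest fall among the genes tested that had reads at both days. Dbp (ENSMUSG00000059824) had normalised counts of 247, 89.3, 297 and 408 in CsA7, 3.88, 44.0, 3.81 and 4.46 in CsA28, and 1.2, 6.48, 3.28 and 2.68 in VEHICLE. Every day 7 library was above every day 28 library, and 3 of the 4 day 28 libraries were within the range of the olive oil mice, while CsA28 replicate 2 was above all of them. The difference was -4.71 ± 0.64 (limma adjusted p = 6.95e-05), or 26.2-fold. Tef fell from 354, 235, 412 and 468 to 115, 208, 110.4 and 83.7, with 56.2 to 96.3 in VEHICLE (-1.54 ± 0.26, limma adjusted p = 0.000713). The groups did not overlap, though CsA7 replicate 2 and CsA28 replicate 2 came close. Hlf, the third gene of the family, was not called (-0.32 ± 0.16, limma adjusted p = 0.306).

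**Figure D2:**
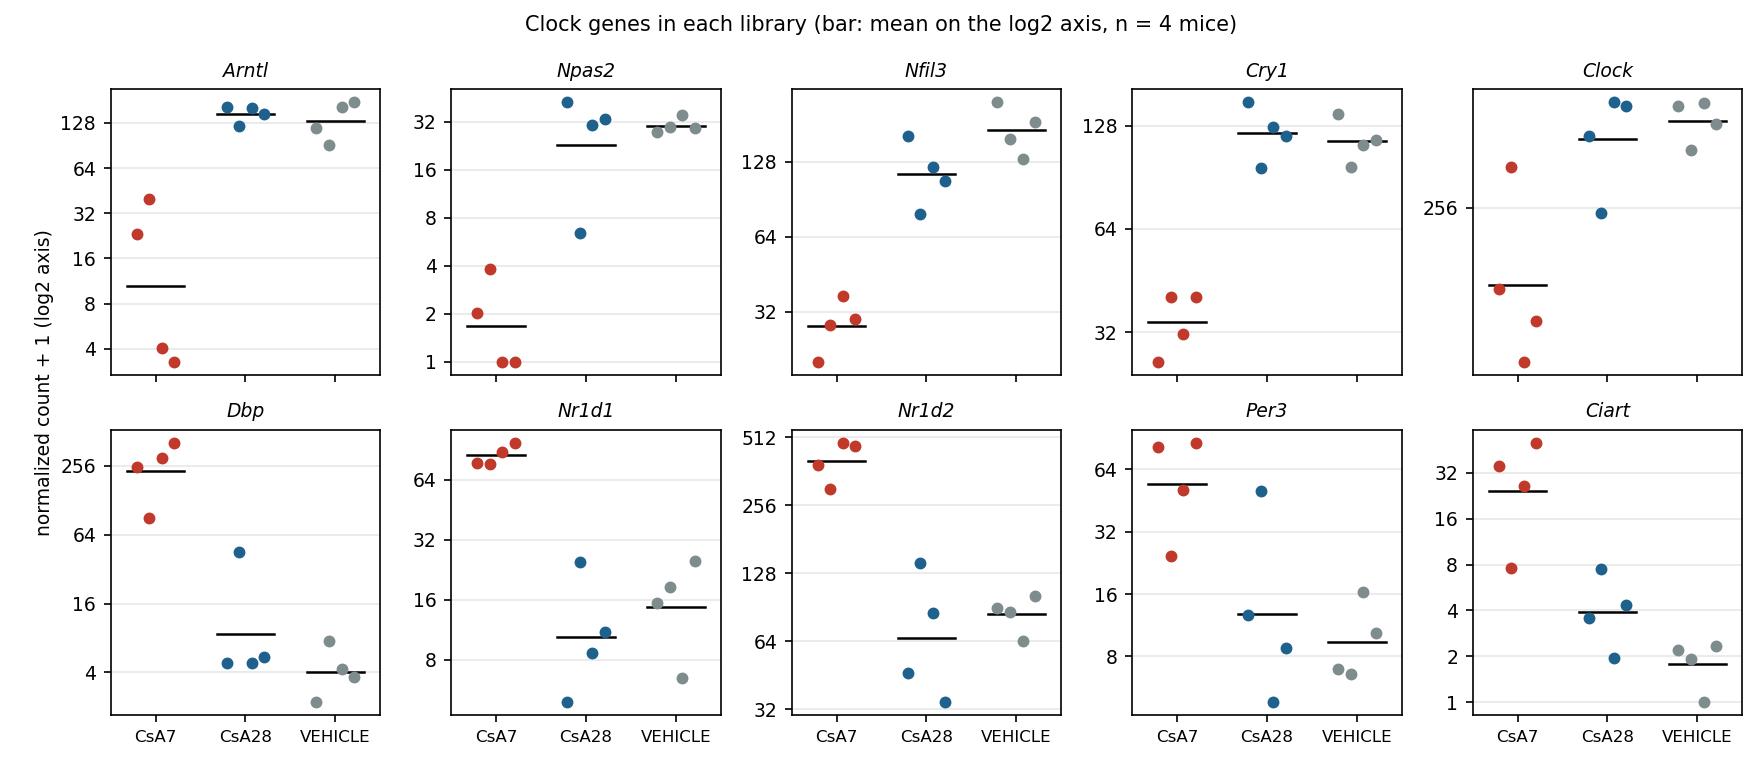
Normalised count plus 1 on a log2 axis (y) in each library of CsA7, CsA28 and VEHICLE (x) for 10 clock genes, with the mean on the log2 axis as a bar (n = 4 mice). The upper row was low at day 7, apart from CsA7 replicate 2 in Clock, and the lower row high, the day 28 libraries lie near those of the olive oil mice, and the second CsA28 point from the left (replicate 2) lies towards day 7 in Npas2, Dbp, Per3 and Ciart.

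The error on these clock genes depended on which libraries gave the spread. With the 8 cyclosporin libraries alone the estimates were the same, but the limma adjusted p was 0.0525 for Nr1d2, 0.0637 for Dbp, 0.0695 for Tef, 0.0954 for Arntl, 0.126 for Clock and 0.238 for Per3, and 0.0682 for Clock and 0.15 for Per3 with the olive oil libraries added. Per3 also lost its call without CsA28 replicate 1, 3 or 4 or CsA7 replicate 1 or 4 (log2 -2.08, -1.62, -1.91, -1.89 and -1.87), and Cry1 without CsA28 replicate 1 (1.73, limma adjusted p = 0.0547).

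The mice of a group did not all stand at the same point of this pattern. Of the 27 called rhythm genes, CsA7 replicate 2 was the day 7 library nearest to the day 28 mean for 16, and CsA28 replicate 2 was the day 28 library nearest to the day 7 mean for 20. For the 314 other called genes the same libraries were nearest for 137 and 131, or 43.6% and 41.7%, against 59.3% and 74.1% of the rhythm genes. Within day 7, replicates 3 and 4 had the lowest Arntl (3.07 and 2.29) and the highest Dbp (297 and 408). Replicate 2 had the highest Arntl (38.6) and the lowest Dbp (89.3). Without CsA28 replicate 2, 36 of the 42 called genes named here remained called.

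Genes that the liver clock is known to drive changed in both directions. Of 30 tested genes of this list 8 rose and 5 fell, where 1.77% of all genes tested rose and 1.41% fell. With changes in both directions the median of the list was -0.03, against -0.0068 over all genes tested. Those that rose included Clpx, a subunit of a mitochondrial protease, Avpr1a, the liver vasopressin receptor, and the membrane transporter Slc45a3. Clpx had 250, 386, 180.1 and 175 in CsA7 and 667, 430, 698 and 685 in CsA28, against 674 to 838 in VEHICLE (1.37 ± 0.22, limma adjusted p = 0.000419). Avpr1a rose from 37.5 to 96.2 in CsA7 to 139 to 202 in CsA28 (1.25 ± 0.21, limma adjusted p = 0.000713), and Slc45a3 from 41.4 to 141 to 158 to 215 (1.37 ± 0.24, limma adjusted p = 0.000778). None of the 3 overlapped between the days, as 10.8% of all genes tested did not. In Clpx and Avpr1a CsA28 replicate 2 was the lowest of its group. Lonrf3 (1.46 ± 0.29), the tight junction gene Cldn1 (0.69 ± 0.17) and Coq8a, of coenzyme Q synthesis (0.69 ± 0.18), rose too.

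Genes of glycogen metabolism stood on opposite sides within the same list. Ppp1r3c and Ppp1r3b encode subunits that bring protein phosphatase to glycogen and favour its synthesis. Ppp1r3c rose from 164, 159, 50.6 and 73.1 in CsA7 to 278, 272, 431 and 323 in CsA28 (1.68 ± 0.40, limma adjusted p = 0.0171), and Ppp1r3b from a mean of 332 to 699 (1.08 ± 0.26, limma adjusted p = 0.0176). Gys2, the liver glycogen synthase itself, fell from 272, 211, 373 and 437 to 184, 187, 159 and 152 (-0.87 ± 0.18, limma adjusted p = 0.0038). The days did not overlap in Ppp1r3c or in Gys2. Usp2, a deubiquitinase (-1.81 ± 0.40), Wee1, a kinase that delays mitosis (-1.50 ± 0.38), Upp2, a uridine phosphorylase (-1.18 ± 0.33), and Cyp2a5, a cytochrome P450 that shares near-identical copies in the genome (-1.13 ± 0.27), fell as well. Ppp1r3c lost its call without CsA28 replicate 3 (1.54), CsA7 replicate 3 (1.36) or CsA7 replicate 4 (1.53), and Cyp2a5 without CsA28 replicate 3 (-1.04) or CsA7 replicate 4 (-1.01).

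Few genes of the feeding, fasting, temperature and glucocorticoid lists passed the test. None of 20 lipogenesis genes, 26 cholesterol synthesis genes, 11 gluconeogenesis genes or 12 genes of the body temperature rhythm was called by limma, and their medians were 0.03, 0.25, -0.07 and 0.34. At an unadjusted p under 0.05 there were 3, 4, 2 and 2, against 1780 of all 10742 genes tested. On recovered reads, edgeR and DESeq2 called none of the first 3 lists. They called 2 and 3 heat-shock genes of the temperature list, whose highest library was CsA28 replicate 4. In cholesterol synthesis 21 of 26 log2 differences were positive, and CsA28 replicate 2 had the highest median level. Of 20 genes of fatty acid oxidation under PPARA 1 fell, where 1.41% of all genes tested did. It was Cpt1a, which brings fatty acids into mitochondria, from 728, 909, 1094 and 918 to 540, 678, 609 and 580 (-0.59 ± 0.14, limma adjusted p = 0.0167), with no overlap. Of 5 tested genes of the amino acid response 1 rose, where 1.77% of all genes tested did. It was Atf4, the transcription factor of this response, from 518 to 893 (0.73 ± 0.17, limma adjusted p = 0.0108). In the list of genes that follow the glucocorticoid rhythm, 2 of 12 rose in limma and DESeq2 (1.77% of all genes rose) and none in edgeR, where the adjusted p was 0.0611 for Cdkn1a and 0.0547 for Dusp1. They are Cdkn1a, an inhibitor of the cell cycle that p53 also controls, and Dusp1, a phosphatase of MAP kinases. Cdkn1a had 20.2, 33.9, 57.5 and 8.38 in CsA7, 105, 95.5, 108 and 307 in CsA28 and 61.3 to 420 in VEHICLE (2.43 ± 0.60, limma adjusted p = 0.0213). Dusp1 went from 166, 112, 86.6 and 67.8 to 441, 263, 210.3 and 215 (1.39 ± 0.39, limma adjusted p = 0.0463). All day 28 libraries were above those of day 7 for both genes. Dusp1 lost its call without any 1 library other than CsA7 replicate 1 (1.15 to 1.51), while Cdkn1a lost its call without CsA28 replicate 4 (2.04) or CsA7 replicate 1 (2.35) or 4 (1.96), and Cpt1a without CsA28 replicate 1 (-0.54) or CsA7 replicate 3 (-0.50) or 4 (-0.58).

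Outside the rhythm lists, the gene with the smallest p of all was Ppard (ENSMUSG00000002250), which encodes the nuclear receptor PPAR delta. It had 20.2, 14.1, 20.7 and 18.3 in CsA7, 133, 53.7, 79.0 and 129 in CsA28, and 62.2, 75.0, 132 and 77.8 in VEHICLE. The day 7 mice were all below the lowest day 28 and olive oil mouse, and the difference was 2.29 ± 0.25 (4.89-fold, limma adjusted p = 1.10e-06). Chka, choline kinase alpha, the first enzyme of phosphatidylcholine synthesis from choline, rose from 88.1, 162, 93.5 and 70.1 to 461, 348, 513 and 1087, against 320 to 513 in VEHICLE (2.46 ± 0.31, limma adjusted p = 2.78e-05). Again no library overlapped, but Ppard, Chka and the next gene were named on condition that the days do not overlap. Of all genes tested, 10.8% met that condition. The serpin pseudogene Serpina4-ps1 rose from 5.06, 4.70, 5.37 and 2.29 to 114, 46.2, 45.7 and 34.6 (3.40 ± 0.60, limma adjusted p = 0.000713). Its level in the olive oil mice was 10.8, 7.40, 135 and 59.0. So 2 of the 4 controls were just above day 7 and the other 2 were within or above the range of day 28. All ligation and DDC libraries had 0 for Serpina4-ps1, and these add no spread to its standard error. With only the 8 cyclosporin and 4 olive oil libraries its call was lost (limma adjusted p = 0.082).

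Among genes outside the rhythm lists, predicted genes left out, with a mean of at least 50 in the higher group and no overlap between the days, the other large rises were those of the galectin-like gene Lgalsl (1.52 ± 0.25), the N-acetyltransferases Nat8 (1.54 ± 0.28) and Nat8f5 (1.56 ± 0.38), the nuclear RNA Neat1 (1.92 ± 0.48) and Egr1, described with the immediate early genes. Nat8 rose from 188, 120.4, 58.2 and 79.2 in CsA7 to 264, 365, 271 and 291 in CsA28, and Neat1 from 196, 164, 79.7 and 86.8 to 614, 599, 307 and 420 (limma adjusted p = 0.00144 and 0.0246). Neither overlapped between the days. Nat8 and Nat8f5 are close paralogs whose tags could be shared in counting. Neat1 lost its call without CsA28 replicate 1 (1.79) or 2 (1.80) or CsA7 replicate 3 (1.72) or 4 (1.76), and Nat8f5 without CsA28 replicate 1 (1.43) or CsA7 replicate 3 (1.35) or 4 (1.40).

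Among genes outside the rhythm lists, predicted genes left out, with a mean of at least 50 in the higher group and no overlap between the days, the largest fall was that of Nrg4, a secreted ligand of ERBB receptors. Nrg4 fell from 36.4, 35.7, 69.0 and 61.7 in CsA7 to 1.29, 21.5, 4.76 and 13.4 in CsA28 (-2.62 ± 0.57, limma adjusted p = 0.00688). The days did not overlap, but the olive oil mice spread over both, at 59.8, 26.8, 6.57 and 5.36. Ppargc1b, a coactivator of mitochondrial and lipid genes, fell from 97.2, 44.2, 55.2 and 86.1 to 20.7, 26.8, 30.4 and 36.8 (-1.23 ± 0.32, limma adjusted p = 0.0278). Fnip2, which binds folliculin in nutrient sensing, fell from 103, 82.7, 81.2 and 125 to 44.0, 55.8, 41.9 and 34.6 (-1.13 ± 0.19, limma adjusted p = 0.000419). Wipf3, an actin regulator, had the tightest groups, with 79.0 to 86.1 in CsA7, 34.3 to 38.8 in CsA28 and 29.6 to 36.1 in VEHICLE (-1.16 ± 0.19, limma adjusted p = 0.000419). Coq10b, a coenzyme Q binding protein (-1.26 ± 0.26), the kinase gene Sbk1 (-1.43 ± 0.32) and Syt1, a calcium sensor of vesicle fusion (-1.41 ± 0.33), fell with no overlap. Without CsA28 replicate 1 the calls of Nrg4 (-2.01), Ppargc1b (-1.09), Sbk1 (-1.16) and Syt1 (-1.24) were lost, and that of Ppargc1b also without CsA28 replicate 2 (-1.21) or CsA7 replicate 1 (-1.05) or 4 (-1.11) and that of Syt1 without CsA7 replicate 4 (-1.31).

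**Figure D3:**
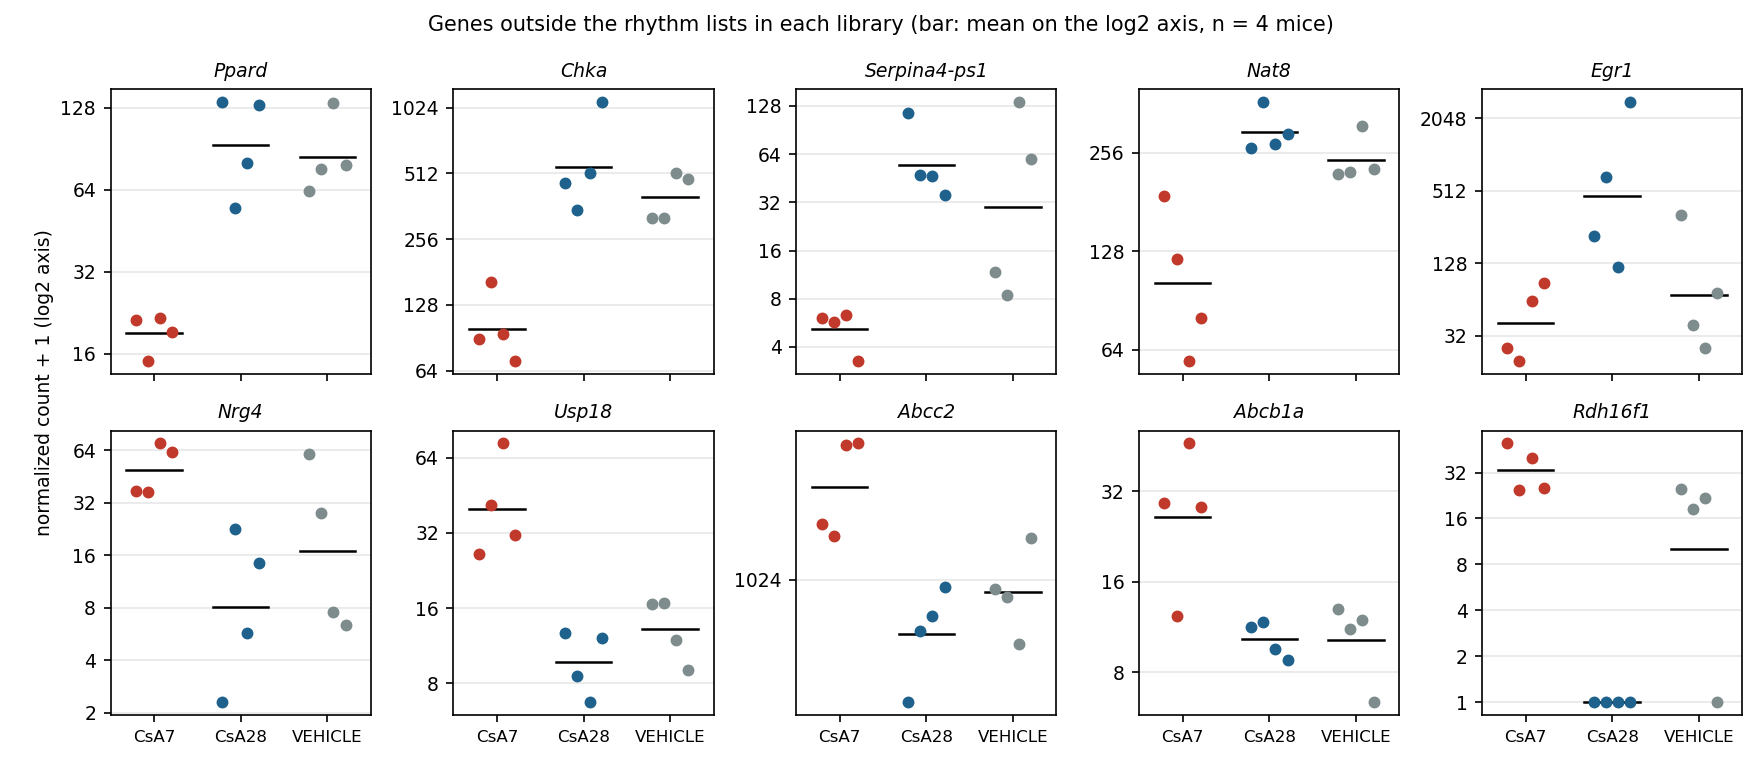
Normalised count plus 1 on a log2 axis (y) in each library of CsA7, CsA28 and VEHICLE (x) for 10 genes outside the rhythm lists, with the mean on the log2 axis as a bar (n = 4 mice). Ppard, Chka, Serpina4-ps1, Nat8, Egr1 and Nrg4 were chosen on condition that the days do not overlap. Usp18, Abcc2 and Abcb1a were chosen by adjusted p within their lists, and Rdh16f1 after its values were seen. The olive oil mice spread widely in Serpina4-ps1 and Nrg4, and Rdh16f1 has no read in any day 28 library.

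A retinol dehydrogenase gene, Rdh16f1, had no read in day 28 livers. It was chosen after its values were seen, because the rule for named genes asks for a mean of at least 50. It had 48.6, 23.5, 39.1 and 24.4 in CsA7 (156 reads in all), 0 in each CsA28 library, and 23.9, 17.6, 20.8 and 0 in VEHICLE. Set against a floor of 3 counts over the 4 day 28 libraries, it was at least 41.2-fold lower at day 28 (limma adjusted p = 0.000808), a bound that covers counting error only. It belongs to a family of closely related genes, and the 0 reads of 1 olive oil mouse show that the level also varied among mice without the drug. The median was 19.19 in VEHICLE, but 0 in SHAM and CTLD, where the highest values were 15.14 and 17.23. Its relatives Rdh16 (0.28 ± 0.25) and Rdh9 (-0.32 ± 0.20) were not called.

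Among genes of bile acids and bile export, limma's calls were in exporters of the canalicular membrane, through which hepatocytes secrete bile. The bile salt carrier Abcb11 was not among them. None of 14 genes of bile acid synthesis, 7 uptake transporters, 2 basolateral exporters and 9 receptors and partners was called by limma. Nor was any by edgeR on recovered reads, while DESeq2 called Slco1a4, an uptake transporter. In these lists 4, 1, 0 and 3 genes had an unadjusted p under 0.05 in limma, against 1780 of all 10742 genes tested. Cyp7a1, whose enzyme takes the rate-limiting first step from cholesterol to bile acids, went from 251, 156, 455 and 134 in CsA7 to 211, 852, 302 and 615 in CsA28 (0.95 ± 0.54, limma adjusted p = 0.403), Cyp8b1 had 0.75 ± 0.34 (limma adjusted p = 0.259), and the bile salt carriers Slc10a1 (-0.21 ± 0.23), Slco1a1 (-0.14 ± 0.55) and Abcb11 (-0.16 ± 0.19) had adjusted p of 0.723, 0.937 and 0.732 in limma. The days overlapped in Cyp7a1, whose day 28 mice differed among themselves by more than the group means. Of 8 canalicular exporters 4 were lower at day 28, where 1.41% of all genes were, and the list median was -0.45 against -0.0068. Abcc2, which exports conjugated organic anions, fell from 1173, 1140.0, 1425 and 1429 to 757, 903, 936 and 1004 (-0.52 ± 0.10, limma adjusted p = 0.00214). Abcb1a, a multidrug exporter that transports cyclosporin A, fell from 28.3, 11.3, 45.2 and 27.4 to 10.4, 10.7, 8.56 and 7.81 (-1.35 ± 0.28, limma adjusted p = 0.0037). Neither overlapped between the days, and the olive oil mice had 875 to 1132 for Abcc2 and 5.36 to 12 for Abcb1a.

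The sterol exporter gene Abcg8 fell from 177, 198, 207 and 251 to 76.4, 191, 112 and 74.8 (-0.97 ± 0.20, limma adjusted p = 0.0034), with CsA28 replicate 2 inside the day 7 range. Its partner Abcg5 had -0.76 ± 0.28 and was not called (limma adjusted p = 0.132). Abcb4, the phospholipid exporter of the canaliculus, was lower by 0.39 ± 0.11 (limma adjusted p = 0.0471), a call lost without CsA28 replicate 1 (-0.33) or 2 (-0.29) or CsA7 replicate 2 (-0.29), 3 (-0.39) or 4 (-0.41) and in edgeR on recovered reads (adjusted p = 0.071). In the fit of the 8 cyclosporin libraries Abcb1a and Abcg8 had limma adjusted p of 0.0705 and 0.147.

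No change passed the test among the genes of the proteins that cyclosporin A acts through. None of 14 tested cyclophilin and calcineurin genes was called by limma, edgeR or DESeq2 (median -0.04). Of the 14, 3 had an unadjusted p under 0.05, against 1780 of all 10742 genes tested. Ppia, its main binding protein, had 2976, 2706, 3165 and 2925 in CsA7 and 2985, 2767, 2805 and 2827 in CsA28 (-0.05 ± 0.08, limma adjusted p = 0.825). Rcan1, a target of the calcineurin pathway, was not called (0.50 ± 0.39, limma adjusted p = 0.575), with 203 in CsA28 replicate 4 and 42.8 to 84.1 in the other 3 mice.

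Genes induced by interferon had mostly negative differences, although few passed the test. Of 15 tested genes 2 fell, where 1.41% of all genes did, and 14 had a negative log2 difference, where 5505 of all 10742 genes did. The median was -0.85, against -0.0068 over all genes. Usp18, which removes ISG15 from proteins, fell from 25.3, 40.4, 72.0 and 30.5 to 11.7, 7.51, 5.71 and 11.2, against 8.05 to 15.7 in VEHICLE (-2.04 ± 0.37, limma adjusted p = 0.000811). Ifi44 fell from 60.7, 80.9, 151 and 46.5 to 27.2, 19.3, 18.1 and 30.1 (-1.69 ± 0.48, limma adjusted p = 0.0483). All day 28 libraries were below those of day 7 in both, and CsA7 replicate 3 was the highest. Isg15 (-1.03 ± 0.30, limma adjusted p = 0.0546) and Ifit3 (-1.29 ± 0.39, limma adjusted p = 0.0567) stood just outside the threshold and were called by edgeR and DESeq2 on recovered reads, which each called 6 of the 15 genes. Without any 1 of the 8 libraries Ifi44 lost its call, with log2 differences between -1.92 and -1.36.

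Immediate early genes, which cells switch on within minutes of a stimulus or of stress at collection, were uneven among the day 28 mice. Egr1 had 24.3, 18.8, 60.6 and 86.1 in CsA7, 215, 660.1, 117 and 2789 in CsA28, and 321, 38.0, 24.1 and 71.1 in VEHICLE. Day 28 was above day 7 in every library, with CsA28 replicate 4 far above the rest (3.52 ± 0.87, limma adjusted p = 0.0213). Btg2 was the other called gene of 8 tested (2.05 ± 0.57, limma adjusted p = 0.0457), with 1107 in CsA28 replicate 4 and 52.3 to 149 in the other 3. So 2 of the 8 rose, where 1.77% of all genes tested did. Fos, Fosb, Ier3 and Atf3 did not reach the filter. They had 12, 2, 37 and 29 reads over the CsA7 libraries and 635, 26, 37 and 199 over the CsA28 libraries. Over the whole list of 12 genes the summed level was 646 to 878 in CsA7, 817 to 8776 in CsA28 and 687 to 1836 in VEHICLE. Without CsA28 replicate 4, Egr1 had 2.66 (limma adjusted p = 0.107) and Btg2 1.16 (limma adjusted p = 0.171). The call of Egr1 was also lost without CsA7 replicate 1 (3.30) or 2 (3.18), and that of Btg2 without any other library except CsA28 replicate 3 (1.83 to 2.30). The part of these genes in the other results was not tested.

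Markers of the cell types of the liver gave no call in limma. None of 15 hepatocyte, 14 sinusoidal endothelial, 11 Kupffer cell, 7 monocyte and macrophage, 12 stellate cell and matrix and 4 cholangiocyte markers tested was called. An unadjusted p under 0.05 was found for 4 of these markers, against 1780 of all 10742 genes tested. The medians lay between -0.28 and 0.16. The summed level of the hepatocyte markers was 109900 to 126500 in CsA7 and 115000 to 131600 in CsA28, and that of the Kupffer cell markers 780.4 to 1308 and 861 to 892. The 15 cholangiocyte markers summed to 232 to 331 in CsA7, 366 to 548 in CsA28 and 319 to 527 in VEHICLE, without overlap between the days, and Sox9 among them (1.1 ± 0.32, limma adjusted p = 0.0528) was the marker of these lists that edgeR and DESeq2 called. No marker of T and NK cells or of neutrophils passed the filter, and Ncr1, Ly6g and Mpo had 0 reads in both groups. In bulk tissue, fewer cells of a type and less RNA per cell cannot be told apart. Of 7 tested cell cycle genes 1, Pcna, fell (-0.49 ± 0.14, limma adjusted p = 0.0411), where 1.41% of all genes tested did. The median of the 7 was -0.77, against -0.0068 over all genes.

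Set beside the olive oil mice, day 7 and day 28 were unlike in number of called genes. CsA7 against VEHICLE gave 506 called genes (4.71%), 237 higher (2.21%) and 269 lower (2.5%), and CsA28 against VEHICLE gave 3 (0.0279%) in limma: Ung (-1.53 ± 0.29), Icam1 (-2.03 ± 0.38) and Rps12-ps21 (3.19 ± 0.59). Of the 50 tested clock genes 27 were called in the first and 0 in the second. In the second, 8 of them had an unadjusted p under 0.05, against 1045 of all 10742 genes tested. The 2 comparisons share the 4 olive oil libraries. Of these, replicates 1 and 2 stood apart in acute phase genes, with 9848 and 7126 of Saa1, a plasma protein of inflammation, against 281 and 296 in the other two, and the part of this in the counts was not tested. In the first, Arntl had -3.66 and Dbp 5.83, and in the second 0.15 and 1.12. For Ppard the values were -2.14 and 0.15, for Nr1d2 2.26 and -0.34, and for Chka -2.01 and 0.45. Tef kept 0.64 of its 2.17 and Ppargc1b 0.67 of its 1.90 at day 28, without passing the test (limma adjusted p = 0.412 and 0.497). Not every gene went this way. Of the 341 genes called between the days, 284 were nearer to VEHICLE at day 28 and 57 at day 7, 56 of the latter outside the rhythm lists. Of the 341, 189 were called in CsA7 against VEHICLE. These counts use the same cyclosporin libraries as the calls between the days.

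The change from day 7 to day 28 differed from that in the other models. The cyclosporin day change differed from that of ligation for 2485 genes (23.1%) and from that of the DDC diet for 685 genes (6.38%), by limma's test of the difference itself. Without CsA7 replicate 4 the second count was 429. Of the 50 tested clock genes 28 differed from ligation and 31 from DDC. For Dbp the day change was -4.71 with cyclosporin, -0.69 with ligation and 3.07 with DDC, and the difference from DDC was -7.78 (limma adjusted p = 1.75e-06) and from ligation -4.02 (limma adjusted p = 0.00208). For Arntl the changes were 3.81, 0.40 and -0.83, and the differences 4.64 (limma adjusted p = 0.000473) from DDC and 3.41 (limma adjusted p = 0.00301) from ligation. Nr1d1, Per3 and Tef had the opposite sign in DDC, with 1.74, 2.35 and 1.28. The transcripts of Nr1d1, Per3, Dbp and Tef were lower at the later day in the cyclosporin mice, where their day change with DDC was positive. For Usp18 the day changes had the same sign in all 3 models (-2.04, -1.71 and -1.02), and neither difference passed the test.

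**Figure D4:**
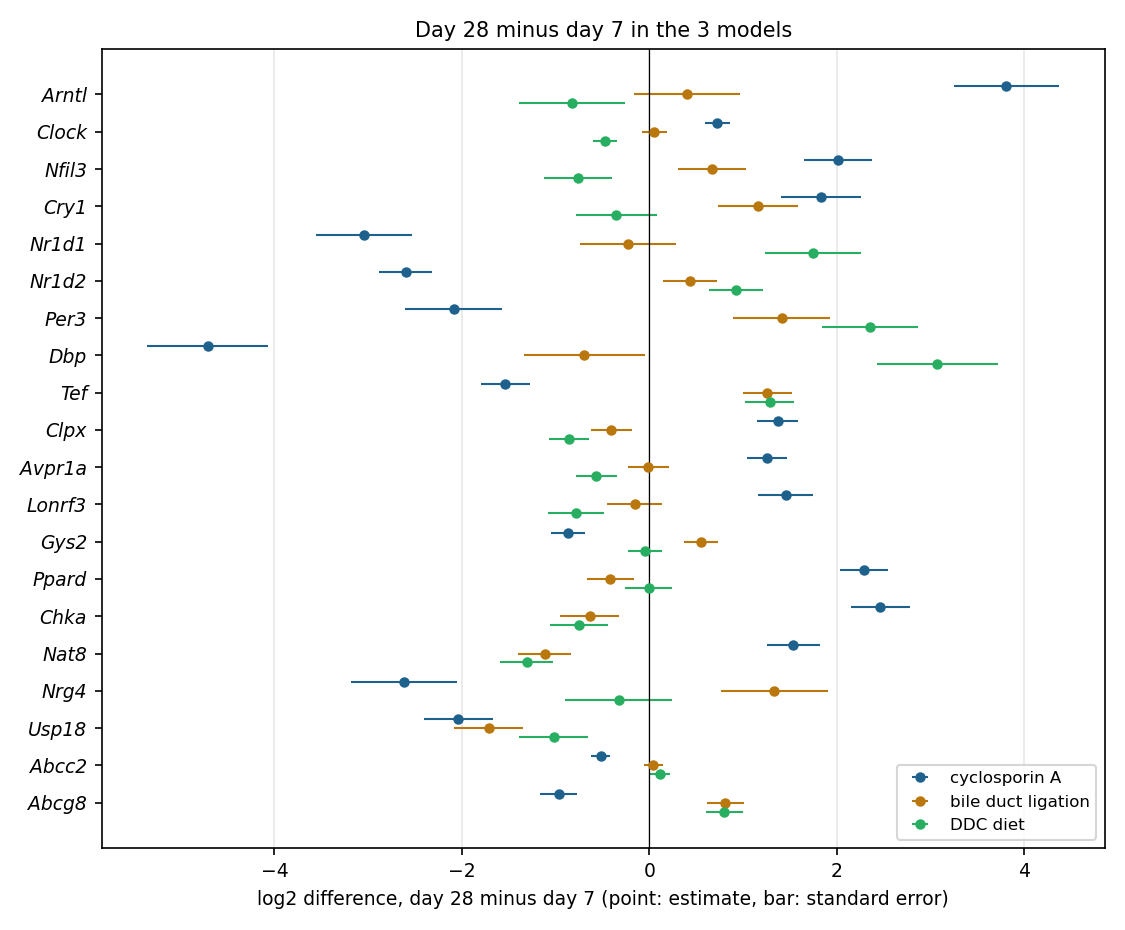
Log2 difference of day 28 minus day 7 with its standard error (x axis) for 20 named genes (rows) in cyclosporin A, bile duct ligation and the DDC diet. For most of the 13 rhythm genes at the top the cyclosporin value lies away from the other two, while the 3 values of Usp18 lie on the same side of 0. Many of the genes shown were named for a large cyclosporin day change, so such a distance follows in part from the choice.

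Across all 9 groups the day 7 cyclosporin mice stood at one end for Dbp and Arntl, but not for every clock gene. The mean of Nr1d1 was highest in CsA7 (84.49). The mean of Tef was 439.7 in BDL28, 380.6 in DDC28 and 367.3 in CsA7, and that of Per3 was 73.2 in BDL28 and 59.9 in CsA7. Dbp was 89.3 to 408 in CsA7, 34.9 to 90.4 in DDC28, 9.19 to 74.8 in BDL28, 13.4 to 51.9 in BDL7, 3.54 to 15.2 in DDC7 and at most 6.48 in SHAM, CTLD and VEHICLE. Arntl was 2.29 to 38.6 in CsA7 and 28.5 to 215 in all other groups, with DDC28 (28.5 to 146) and BDL28 (43.3 to 194) reaching lowest. Only DDC28, with 1 library, had Arntl inside the CsA7 range, and the Dbp ranges of these 2 groups also met. Ppard ordered the groups differently: it was 14.1 to 20.7 in CsA7, 13.6 to 31.2 in DDC7, 15.6 to 25.8 in DDC28, 19.3 to 28.8 in BDL28 and 23.4 to 42.6 in BDL7, and 43.1 to 133 in CsA28 and the 3 control groups. All 5 of the low groups were treated, and CsA28 was the treated group among the controls.

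**Figure D5:**
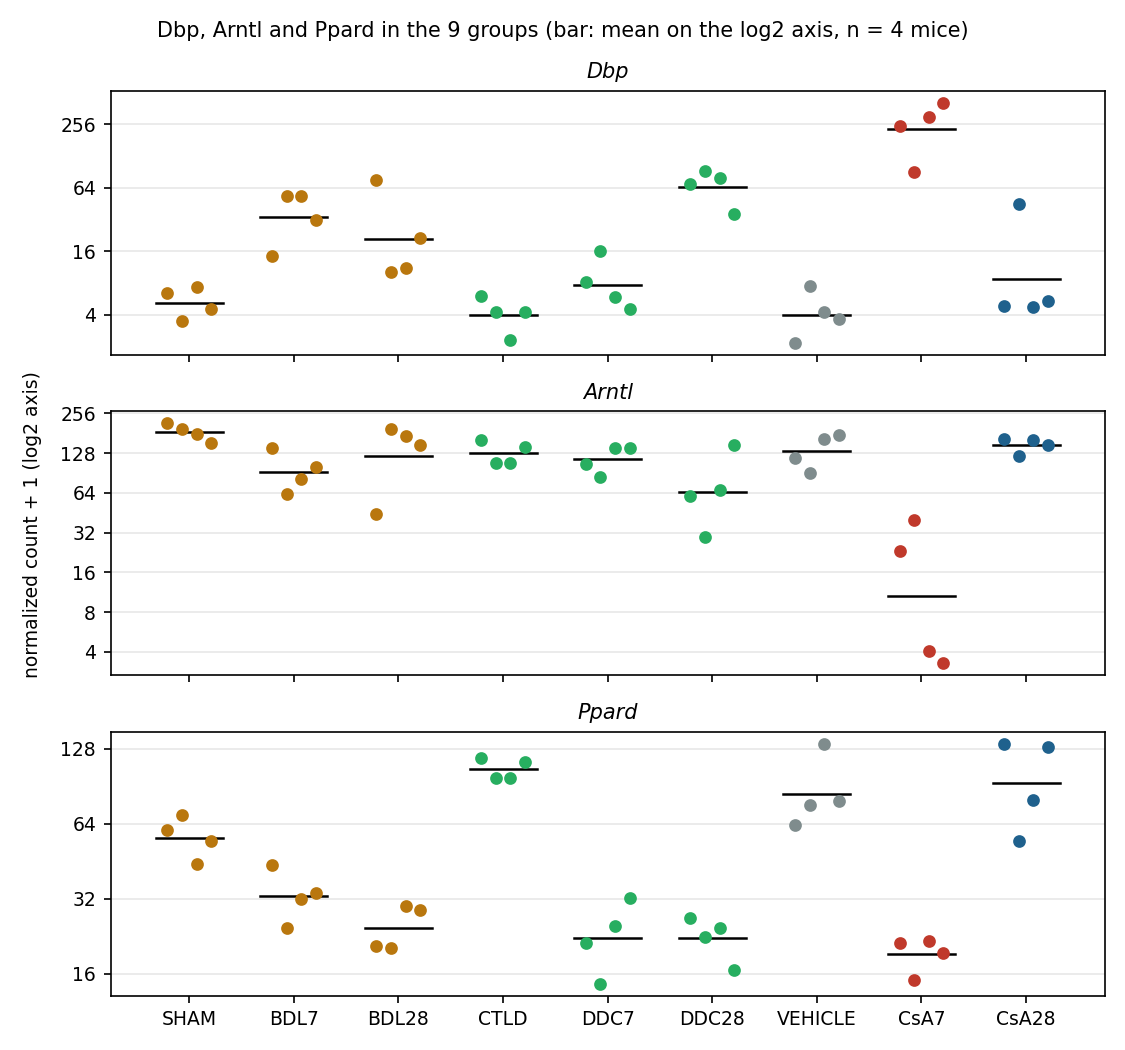
Normalised count plus 1 on a log2 axis (y) of Dbp, Arntl and Ppard in each library of the 9 groups (x), with the mean on the log2 axis as a bar (n = 4 mice). CsA7 is highest in Dbp and lowest in Arntl, while in Ppard it lies with the DDC and ligation groups and CsA28 with the controls.

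The genes outside the rhythm lists whose levels followed Dbp most closely from mouse to mouse, after the mean of each group was subtracted over the 36 libraries, were Sri (r = 0.707), Ccl9 (0.655), Micu2 (0.654), Dsg1c (0.646) and Fam47e (0.64). Those that ran most against it were Pex11a (r = -0.751), Pak4 (-0.721), Ubap1 (-0.688), Api5 (-0.657) and Slc30a10 (-0.656). These are descriptions across libraries that share a preparation and 1 size factor each. Of the 10, Micu2, a regulator of mitochondrial calcium uptake (-0.43 ± 0.12, limma adjusted p = 0.0332), and Slc30a10, a manganese exporter (1.11 ± 0.26, limma adjusted p = 0.0153), also changed between the days.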

How the data were processed

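Liver RNA of 36 mice in 9 groups of 4 was sequenced from the 3' end with unique molecular identifiers, per the labels' protocols. The submitters' processing notes name GRCm39, the aligner STAR 2.7.9a, UMI-tools 1.1.1, the quantifier RSEM 1.3.1, DESeq2 and Trim Galore, without their order. The authors deposited 1 table of normalised counts for 29546 genes (a signal: gene counts divided by a size factor of each library). Dividing each library by its smallest step gave whole reads within 0.001 in 36 of 36 libraries. Values were taken as log2(normalised count + 1), and limma 3.58.1 (R 4.3.3; trended and robust) was fitted to all 36 libraries in 1 model with a mean per group. Genes had to reach 10 in 4 of the 8 cyclosporin libraries, and p-values were adjusted over all 10742. On recovered reads, edgeR 4.0.16 and DESeq2 1.42.0 were run as alternatives over 34 libraries, because 2 libraries have a step too near 1. The limma and edgeR steps were tested on simulated data with 200 changed genes. Symbols matched 29064 IDs, 57 IDs share a symbol and 425 have none.

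Libraries are taken as separate mice, as the labels number them, and no 2 libraries were identical. The 48 gene lists (12 of rhythm) and the members were chosen with earlier results of these data known. The named genes were 25 anchors, of which 22 were tested, the up to 8 largest rises and 8 largest falls per class (predicted genes left out) with no overlap between the days and a higher group mean of at least 50, and up to 4 members of each described list with the lowest adjusted p. The result of 1 named gene is not reported here.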

Additional observations from a re-analysis of the deposited data

Results flagged for a closer look

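Single mice stood apart in 14 of 180 sets of 4 values searched (the named genes in CsA7, CsA28 and VEHICLE), where the gap of 1 library to its nearest neighbour, divided by the range of the group, was above Dixon's critical value for groups of 4. Chance gives about 1 in 20. In CsA28, replicate 2 stood alone in Dbp (44.0, nearest 4.46), Clpx (430, nearest 667), Lpin1 (1180, nearest 590) and Ddit4 (130, nearest 40.1). Dbp and Clpx were closer to day 7 in this mouse than in the other 3. CsA28 replicate 4 stood alone in Ier2 (317, nearest 49.2) and Cdkn1a (307, nearest 108). In CsA7, replicate 4 was low in Lgalsl (20.6, nearest 41.4) and in Serpina4-ps1 (2.29, nearest 4.7). The olive oil mice had 6 such values: replicate 3 in Nat8 (309, nearest 228), Abcg8 (71.1, nearest 105), Zfp36 (218, nearest 292) and Lpin1 (293, nearest 851), replicate 1 in Ier2 (50.2, nearest 26.8), and replicate 4 in Slc10a1 (1630, nearest 1450).

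Many of the 60 named genes were chosen for a large cyclosporin day change, which the next 2 comparisons use again. High counts therefore follow in part from the choice, and 23.1% of all genes tested differed from ligation and 6.38% from DDC. The day change of cyclosporin A differed from that of bile duct ligation in 39 of the named genes by limma's test of the difference (adjusted p under 0.05), given as log2 values of the cyclosporin change minus the ligation change. It was the higher in Ppard (2.71), Chka (3.1), Lgalsl (1.54), Serpina4-ps1 (3.4), Nat8 (2.65), Nat8f5 (4.57), Egr1 (4.04), Neat1 (3), Isg15 (1.35), Rcan1 (1.68), Abcb11 (1.12), Arntl (3.41), Clpx (1.78), Avpr1a (1.26), Clock (0.672), Lonrf3 (1.61) and Ppp1r3c (2.55). It was the lower in Fnip2 (-1.07), Wipf3 (-1.62), Abcc2 (-0.561), Abcg8 (-1.78), Abcb1a (-2.64), Coq10b (-1.56), Nrg4 (-3.95), Sbk1 (-2.23), Ppargc1b (-1.83), Slc10a1 (-1.17), Nr1d2 (-3.03), Dbp (-4.02), Nr1d1 (-2.81), Tef (-2.79), Gys2 (-1.42), Cyp2a5 (-2.55), Cpt1a (-1.09), Per3 (-3.5), Lpin1 (-1.94), Cry2 (-1.35), Hlf (-1.13) and Per1 (-3.08).

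Against the DDC diet 39 of the named genes differed by the same test, where 6.38% of all genes tested did. The cyclosporin change minus the DDC change was positive in Ppard (2.3), Chka (3.21), Lgalsl (1.9), Serpina4-ps1 (3.4), Nat8 (2.84), Nat8f5 (4.7), Egr1 (4.45), Neat1 (2.92), Zfp36 (1.55), Cyp8b1 (2.45), Slco1a1 (2.89), Arntl (4.64), Clpx (2.23), Avpr1a (1.82), Slc45a3 (2.24), Clock (1.2), Nfil3 (2.78), Lonrf3 (2.24), Cry1 (2.18), Ppp1r3c (2.2) and Cdkn1a (3.2). It was negative in Fnip2 (-1.25), Wipf3 (-1.28), Abcc2 (-0.634), Abcg8 (-1.77), Abcb1a (-2), Coq10b (-1.65), Sbk1 (-1.92), Ppargc1b (-1.5), Nr1d2 (-3.52), Dbp (-7.78), Nr1d1 (-4.78), Tef (-2.82), Gys2 (-0.823), Cyp2a5 (-1.68), Per3 (-4.44), Lpin1 (-1.92), Cry2 (-1.23) and Hlf (-1.14). Serpina4-ps1 had no read in any ligation or DDC library, so its difference equals its cyclosporin change. Those libraries add no spread to the standard error of that difference. Day 7 and day 28 of each model were sampled from separate mice, and a difference in hour or feeding state at collection between the groups was not tested.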

How the results depend on the processing

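The main counts were 190 genes higher and 151 lower at day 28, of which 16 and 11 were rhythm genes and 174 and 140 other genes. Pseudocounts of 0.5 or 5, a filter of 50 or none, quantile normalization, edgeR and DESeq2 kept each of these counts within 1.5 times, with 133 to 252 higher and 114 to 178 lower. With total-count scaling, 126 were higher and 227 lower, 111 and 214 of them other genes. With the 8 cyclosporin libraries alone the counts were 90 and 86 (rhythm 7 and 3, other 83 and 83), and with the olive oil libraries added 81 and 59 (rhythm 8 and 6, other 73 and 53); the spread came from fewer libraries there. Without CsA28 replicates 2 and 4 together, an alternative chosen after seeing the data, they were 100 and 94 (rhythm 9 and 12, other 91 and 82). Leaving out 1 cyclosporin library gave 75 to 191 higher and 53 to 172 lower, 10 to 16 and 5 to 15 among rhythm genes and 65 to 175 and 48 to 157 among other genes. The genes whose day change differed from ligation (2485) were then 2059 to 2373, and those that differed from DDC (685) were 429 to 743.

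Over all genes, mice with the same number did not deviate together (correlations 0.035, -0.096, 0.0024 and -0.087 by the numbers in the descriptions, -0.022 and 0.036 by those in the titles). These few correlations cannot exclude a pairing that acts on some genes only. A replicate block by the descriptions gave 185 and 149 calls. A block by the number in the titles, of which the days share only 2, gave 29 and 12 (rhythm 5 and 5, other 24 and 7), and under it Slc10a1 (0.0043) and Slco1a1 (0.012) changed sign. Leaving out 1 library, Per1 ranged from -0.40 to 0.0304 and Per2 from -0.58 to 0.0058, with the sign turned without CsA28 replicate 1 and CsA28 replicate 3. Of the 42 called named genes, 42 stayed called in DESeq2, 39 in edgeR, 41 with total-count scaling, 18 in the 8-library fit and 28 to 37 without 1 library. Differences between models were not refitted with the blocks, the smaller sets of libraries or DESeq2.

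Npas2, Ciart and Bhlhe41 did not reach the filter.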

Other observations

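The groups described here were chosen after their values were seen and are given as values only. Several of the genes that fell from day 7 to day 28 are known for nutrient sensing and autophagy. Flcn, which encodes folliculin, fell from 107, 80.9, 108 and 85.3 in CsA7 to 55.7, 54.7, 54.2 and 55.8 in CsA28, against 47.2 to 77.8 in VEHICLE (-0.77 ± 0.18, limma adjusted p = 0.0104). Fnip1, the partner of Fnip2 in binding folliculin, fell by 0.59 ± 0.11 on the log2 scale (limma adjusted p = 0.00144). Ulk1, the kinase that starts autophagy, fell from 238, 276, 268 and 276 to 115, 184, 149 and 140 (-0.86 ± 0.17, limma adjusted p = 0.00297). Rb1cc1, a subunit of the ULK1 complex (-0.44 ± 0.11), Gabarapl1, of the autophagosome membrane (-0.58 ± 0.13), Uvrag (-0.42 ± 0.12) and Npc1, the lysosomal cholesterol carrier (-0.68 ± 0.12), fell too. They are described as called genes and not as a tested group.

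Other genes chosen this way act in chromatin and DNA replication. Hist1h1c, a linker histone, rose from 131 to 201 in CsA7 to 325 to 568 in CsA28, where VEHICLE had 430 to 635 (1.38 ± 0.16, limma adjusted p = 4.36e-06). Dnmt3b, a DNA methyltransferase, rose from 0.762 to 4.05 to 14.5 to 28.5 (2.65 ± 0.36, limma adjusted p = 2.79e-05), against 6.48 to 27.4 in VEHICLE. The replication licensing factor Cdt1 (-1.39 ± 0.36), its inhibitor Gmnn (-1.10 ± 0.26) and the condensin subunit Smc4 (-0.67 ± 0.19) fell, and in Cdt1 and Smc4 the highest library was CsA7 replicate 3. Thpo, the thrombopoietin gene, rose from 32.8 to 43.7 to 64.4 to 96.0 (1.03 ± 0.19).

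Lists without a call between the days were also set against the olive oil mice, in 2 comparisons that share those 4 control libraries. Cholesterol synthesis genes had a median log2 difference from VEHICLE of 0.28 at day 7, with 23 of 26 positive, and of 0.45 at day 28, with 26 of 26 positive. Endoplasmic reticulum chaperones, which fold secreted proteins, had a median of -0.69 at day 7 and of -0.51 at day 28, with 17 of 17 negative each time. The day 28 mice were uneven in median level relative to each gene's mean over the CsA7, CsA28 and VEHICLE libraries. For chaperones CsA28 replicate 4 had 0.327, within the 0.309 to 0.601 of VEHICLE, and the rest -0.358 to -0.0964. For cholesterol synthesis CsA28 replicate 2 had 0.701 and the rest -0.0555 to 0.234. Acute phase genes, which encode plasma proteins of inflammation, had -0.66 and -0.55, with 19 of 19 negative each time, but these values rested on olive oil replicates 1 and 2. Saa1 was 9848, 7126, 281 and 296 in VEHICLE, and 198 to 749 in CsA28. Without those 2 libraries, an alternative chosen after seeing the data, the acute phase medians were -0.07 at day 7, with 13 of 19 negative, and 0.03 at day 28, with 7 of 19 negative. The chaperones then had -0.67 and -0.47, with 17 of 17 negative each time, and cholesterol synthesis 0.18 and 0.36. The medians of all genes tested were 5.62e-05 and -0.00137. With total-count scaling the median of all genes at day 7 moved to 0.13, and the 3 lists kept the sign of their medians (0.41, -0.56 and -0.52 at day 7 and 0.54, -0.42 and -0.47 at day 28). Limma called 0, 13 and 2 genes of these lists at day 7 and 0 at day 28, where 16, 16 and 12 of them had an unadjusted p under 0.05, against 1045 of 10742 genes.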
